A study of Homo sapiens with 4 samples.

Results

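Hemidesmosomes are plaques that hold an epithelial cell to its basement membrane. In them the integrin α6β4 binds laminin-332 outside the cell, the plakins plectin and dystonin tie it to keratin filaments inside, and the transmembrane collagen XVII and the tetraspanin CD151 sit beside it. LAMA3 and LAMB3 encode chains of the laminin-332 trimer, and basal breast epithelium is one of the tissues that uses these plaques. The genes described here are 8 members of that set, ITGB4, ITGA6, CD151, COL17A1, DST, PLEC, LAMA3 and LAMB3, taken by symbol out of the 48162 genes in the table of raw counts. Each symbol matched 1 row. The members were chosen from values of the same TMEM9 KD against WT comparison that is given below, so their differences are a description and carry no test.

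The cells are labelled MDA-MB-453, an established human breast cancer line, and were sequenced as 2 groups of 2 libraries. One group carried a reduction of TMEM9, a membrane protein of endosomes and lysosomes, and is labelled TMEM9 KD. The other was wild type (WT). The sources used here do not say how TMEM9 was reduced, whether the TMEM9 KD cells are 1 clone or a pool, or whether replicate libraries stem from separate cultures. P-values therefore cover the spread between libraries alone, which can be technical.

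Library totals ran from 15960941 to 17065126 counts in TMEM9 KD and from 15323843 to 18517337 in WT, and the members together took 0.236% and 0.266% of the counts in TMEM9 KD libraries, against 0.243% and 0.241% in WT libraries. TMEM9 itself had 51 and 78 counts in TMEM9 KD and 1120 and 1497 in WT. The libraries were compared with a list of luminal and apocrine breast markers, and not all were present. Whether MDA-MB-453 itself is known to have each of these markers was not checked. ERBB2 (54.3 ± 1.55 CPM in TMEM9 KD and 63.6 ± 0.104 CPM in WT) and KRT8 (269 ± 7.64 CPM in TMEM9 KD and 282 ± 13 CPM in WT) were well covered (SD, n = 2 each). CDH1, EPCAM, KRT19 and SPDEF had at most 9 counts in any library, and PIP and TFF1 had no count in any library. EGFR (256 ± 4.74 CPM in TMEM9 KD and 257 ± 6.06 CPM in WT) and TP63 (32.5 ± 1.43 CPM in TMEM9 KD and 155 ± 0.819 CPM in WT), both in the list of basal and myoepithelial markers, were well covered in libraries of a line known as luminal and apocrine. Other genes of that list ran in WT from no count of CNN1 and 0.917 CPM of KRT5 to 642 CPM of CAV1. Of the luminal and apocrine list, KRT18 and XBP1 had 134 and 191 CPM in WT. FOXA1, GATA3 and ESR1 of that list had 2.83, 2.56 and 0.651 CPM in WT. Genes of the fibroblast list ran in WT from 0.0555 CPM of LUM to 955 CPM of COL3A1. These levels were not compared with a reference profile of the line. Its identity is therefore taken from the label alone and was not tested here. No other cell type is read from them. The series text calls the profiles retinal, and of 13 photoreceptor genes GNAT1 and RCVRN had no count in any library.

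Promoter sequences are shown first for members whose start is in the RefSeq promoter table (build GRCh38.p14), since members of 1 trimer can be compared there. Starts of 5 members were in the table, with 10 promoter windows of 250 bases before to 50 bases after a start. The first pair below are the laminin chains, with the AP-1 motif TGANTCA in capitals. AP-1 is the dimer of FOS and JUN family proteins. The third shows ITGA6, with the SP1 box GGGCGG in capitals. The last shows COL17A1, the member with the largest difference among those with a promoter in the table, in which none of the motifs searched lies in the stretch shown. A TATA box match lies outside that stretch, at -206 to -201 relative to the start.
LAMA3: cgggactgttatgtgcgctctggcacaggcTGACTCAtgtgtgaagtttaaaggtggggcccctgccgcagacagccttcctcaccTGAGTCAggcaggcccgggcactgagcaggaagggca
LAMB3: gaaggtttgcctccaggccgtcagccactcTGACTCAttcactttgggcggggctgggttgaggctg
ITGA6: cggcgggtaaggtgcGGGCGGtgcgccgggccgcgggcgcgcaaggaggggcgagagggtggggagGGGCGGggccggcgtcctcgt
COL17A1: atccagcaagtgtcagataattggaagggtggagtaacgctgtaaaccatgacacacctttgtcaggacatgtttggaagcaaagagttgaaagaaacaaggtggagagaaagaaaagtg

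The LAMA3 stretch lies at chr18:23872865-23872987 on the plus strand and holds 2 AP-1 matches. The LAMB3 stretch lies at chr1:209651405-209651471 on the minus strand and holds 1, before 1 of the 3 LAMB3 starts listed. The ITGA6 stretch is chr2:172427465-172427551 on the plus strand, and the COL17A1 stretch is chr10:104085881-104086000 on the minus strand. Motifs were searched on both strands of each window of 250 bases before to 50 after. AP-1 was found in 3 of the 10 member windows, in LAMA3, LAMB3 and DST, and in 7.73% of all 34796 promoter windows. In DST the match lies after 1 of the starts listed, and the other DST windows held none of the motifs searched. The SP1 box was in 7 member windows, of 4 of the 5 genes, against 44.9% of all windows. Windows of LAMB3 and of ITGA6 overlap, so that the same SP1 match was counted in more than 1 window. The TFAP2 motif GCCNNNGGC was in 2 member windows against 23.2%. The TATA box TATAAA was in 2, of COL17A1 and ITGA6, against 11.6%. SP1 and TFAP2 matches may overlap in GC-rich stretches. A match is a run of letters and was not tested as a binding site.

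The receptor chains differed from each other. ITGB4 encodes the β4 chain, which pairs only with α6 and whose long tail binds plectin. It had 3.05 and 2.17 CPM in TMEM9 KD libraries, against 102 and 101 CPM in WT libraries, where CPM is counts per 1000000 counts of the library, scaled with TMM factors. These were 50 and 38 counts in TMEM9 KD and 1527 and 1825 in WT. Both TMEM9 KD libraries lay far below both WT libraries, and the groups did not overlap. Log2 fold changes here are of TMEM9 KD over WT, and for ITGB4 the log2 fold change was -5.29 (SE 0.13), which is 39.0 times less in TMEM9 KD. It stood at rank 110 from the most negative of 14923 genes tested. In bulk libraries, fewer cells with the transcript and less transcript per cell cannot be told apart.

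ITGA6 encodes the α6 chain, which also pairs with the β1 chain of ITGB1. Its level was 430.2 and 430.9 CPM in TMEM9 KD, against 503 and 509 CPM in WT. Both TMEM9 KD libraries were lower, by a log2 fold change of -0.23 (SE 0.05). CD151, the tetraspanin that binds laminin-binding integrins, had 249 and 295 CPM in TMEM9 KD and 271 and 257 CPM in WT. Here the groups overlapped, since 1 TMEM9 KD library lay below both WT libraries and the other above them. The log2 fold change of CD151 was 0.05 (SE 0.06), and it turned to -0.09 without TMEM9_KD replicate 2. The gene POLR2L on the opposite strand shares 257 exon bases with CD151, or 6.53% of its exons, and without a stated strand setting reads there may belong to either.

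COL17A1, the collagen XVII of the plaque that is also the bullous pemphigoid autoantigen BP180, had 6.59 and 8.52 CPM in TMEM9 KD, against 87.7 and 88.7 CPM in WT. The counts were 108 and 149 in TMEM9 KD, against 1313 and 1597 in WT. As for ITGB4, each TMEM9 KD library was below each WT library by a wide margin. The log2 fold change was -3.54 (SE 0.11), or 11.6 times less in TMEM9 KD.

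The plakins on the keratin side were not lower. DST encodes dystonin, whose epithelial isoform BP230 is a hemidesmosome protein and whose other isoforms act in nerve and muscle. It had 596 and 641 CPM in TMEM9 KD and 519.9 and 503 CPM in WT, with both TMEM9 KD libraries higher (log2 fold change 0.27, SE 0.05). PLEC encodes plectin, which binds the ITGB4 tail and also works at other adhesions. It had 834 and 1044 CPM in TMEM9 KD, against 729.7 and 734 CPM in WT. Both TMEM9 KD libraries were higher, and they lay further apart than the WT pair. The log2 fold change of PLEC was 0.36 (SE 0.06), and 0.18 without TMEM9_KD replicate 2. DST has 35 and PLEC 15 transcripts in GENCODE 29, so a gene-level count sums isoforms and does not show the epithelial ones alone.

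**Figure D1:**
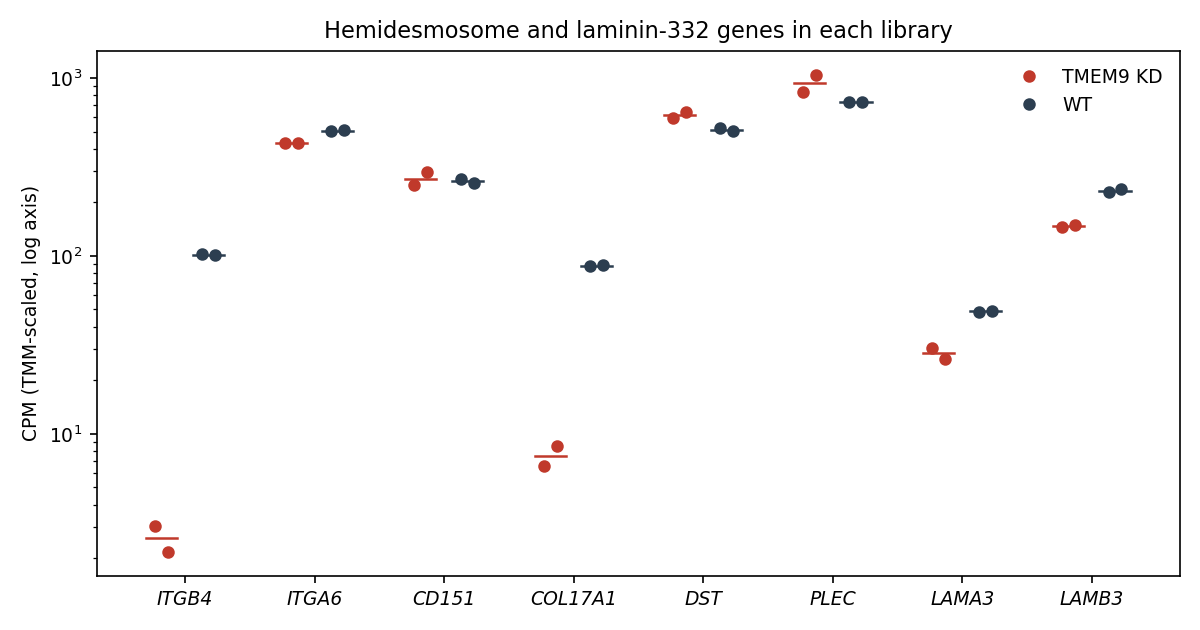
CPM (TMM-scaled, log axis) of the 8 members in each of 4 libraries, TMEM9 KD in red to the left and WT in dark blue to the right of each gene; points are libraries and short lines group means (n = 2 each). ITGB4 at 2.17 and 3.05 CPM and COL17A1 at 6.59 and 8.52 CPM in TMEM9 KD lie far below WT, while the points of CD151 overlap.

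The ligand chains were lower together, by less than ITGB4 and COL17A1. LAMA3, the α chain of laminin-332 whose end binds the integrin, had 30.4 and 26.3 CPM in TMEM9 KD, against 48.5 and 49.3 CPM in WT. LAMB3, the β chain, had 145 and 149 CPM in TMEM9 KD, against 227 and 236 CPM in WT. For both chains the groups did not overlap. The log2 fold changes were -0.79 (SE 0.10) for LAMA3 and -0.66 (SE 0.06) for LAMB3.

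Levels per kilobase of exon, with exon length from the union of GENCODE 29 exons, place the members on 1 scale. In TMEM9 KD the order of mean levels was CD151 with 69.1 ± 8.1, ITGA6 with 65.9 ± 0.0788, PLEC with 55.3 ± 8.73, LAMB3 with 31.3 ± 0.597, DST with 14.6 ± 0.752, LAMA3 with 1.93 ± 0.201, COL17A1 with 1.07 ± 0.194 and ITGB4 with 0.386 ± 0.0916 CPM per kb (SD, n = 2). Among neighbours in this order, the libraries of CD151 and ITGA6 overlapped and those of the other pairs did not. In WT the order was ITGA6 with 77.5 ± 0.712, CD151 with 67.0 ± 2.44, LAMB3 with 49.4 ± 1.39, PLEC with 43.1 ± 0.171, ITGB4 with 15.04 ± 0.0629, COL17A1 with 12.5 ± 0.103, DST with 12.1 ± 0.276 and LAMA3 with 3.33 ± 0.0347 CPM per kb, and no neighbours overlapped. ITGB4 thus stood above COL17A1, DST and LAMA3 in WT and below every other member in TMEM9 KD. The union of exons counts every isoform, so a gene with long, rarely used exons may be set too low by this measure. This may hold for DST with 42.3 kb and for LAMA3 with 14.7 kb and 15 transcripts.

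Ratios between partner chains, taken per kilobase of exon within each library, show which pairs kept their proportion. ITGA6 to ITGB4 was 146 and 205 in TMEM9 KD, against 5.10 and 5.20 in WT. ITGA6 to ITGB1, the other partner of the α6 chain, was 0.300 and 0.320 in TMEM9 KD, against 0.324 and 0.322 in WT. The α6 transcript thus lost most of its β4 counterpart in TMEM9 KD, while its ratio to the β1 transcript stayed between 0.300 and 0.324 in every library.

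The laminin chains gave a ratio that overlapped between the groups. LAMB3 to LAMA3 was 14.9 and 17.7 in TMEM9 KD and 14.6 and 15.02 in WT. The size of this ratio depends on the exon length used for LAMA3, which was the same in every library. COL17A1 to ITGB4 was 2.07 and 3.75 in TMEM9 KD and 0.823 and 0.837 in WT, so the ITGB4 transcript was reduced further than that of COL17A1 in both TMEM9 KD libraries.

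**Figure D2:**
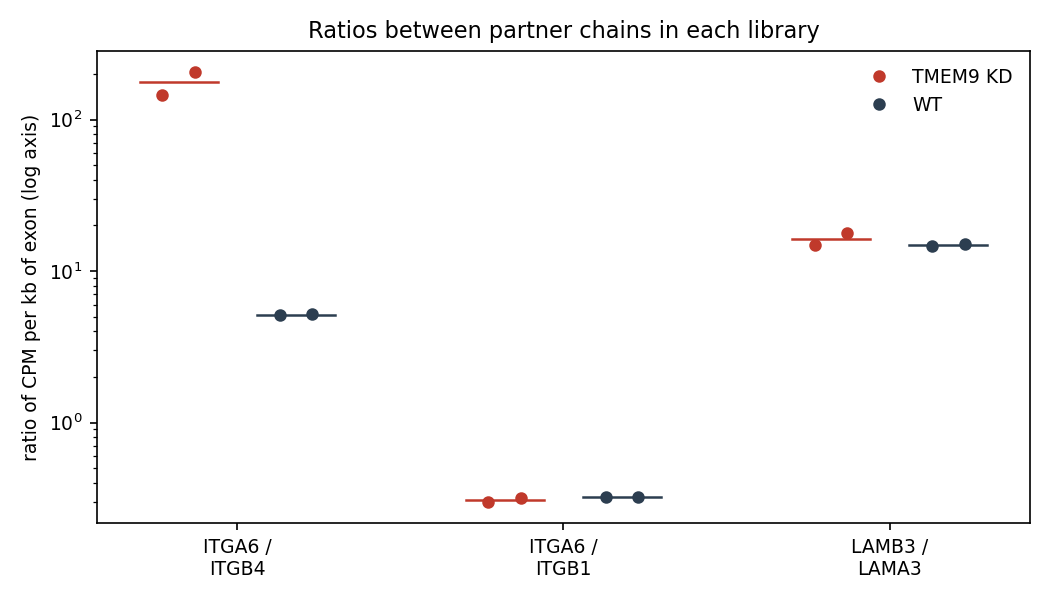
Ratios of CPM per kb of exon between partner chains in each library (log axis), TMEM9 KD in red to the left and WT in dark blue to the right; points are libraries and short lines group means (n = 2 each). ITGA6 to ITGB4 is 146 and 205 in TMEM9 KD against 5.10 and 5.20 in WT, while LAMB3 to LAMA3 overlaps between the groups.

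In the fit over all genes, 8618 of 14923 genes passed an adjusted p of 0.05, which is 57.7%, with 28.7% higher and 29.0% lower in TMEM9 KD. All 8 members passed the filter on low counts, with counts of at least 38 in every library. Past the threshold lay 2 members upward, DST and PLEC, and 5 downward, and CD151 was not past it. PLEC was not past the threshold with DESeq2, and CD151 was past it, upward, without TMEM9_KD replicate 1. The groups did not overlap in 7 of 8 members, against 77.6% of the genes tested. Because the members were chosen from this comparison, nothing is read from these counts.

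**Figure D3:**
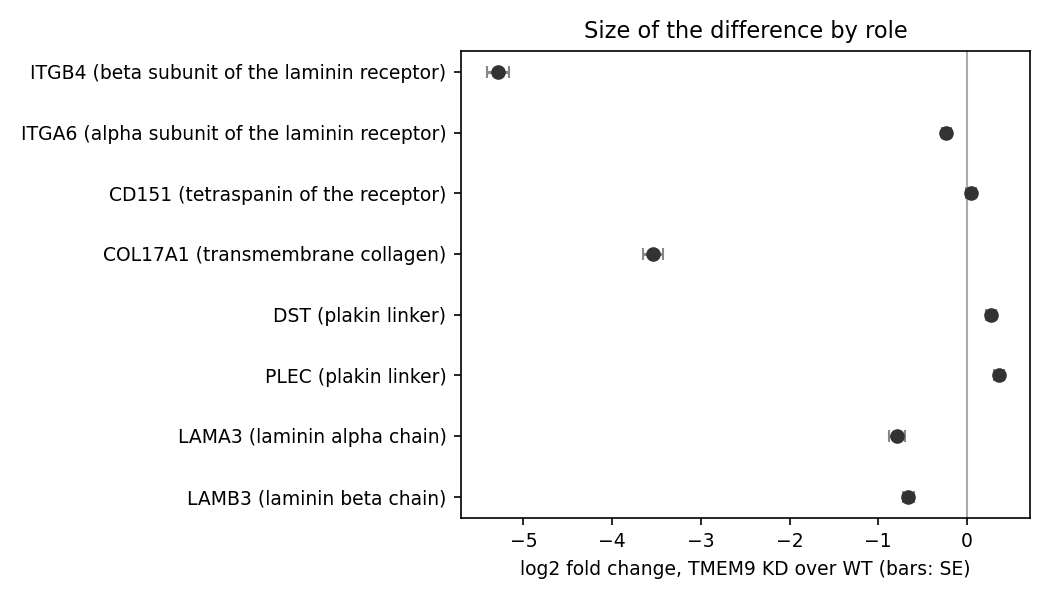
Fitted log2 fold change of TMEM9 KD over WT for the 8 members, ordered by role, with bars for the SE. ITGB4 at -5.29 and COL17A1 at -3.54 stand apart from the other members, which lie between -0.79 and 0.36.

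Genes that work with the members were taken from lists and read against the same background, with a median log2 fold change of 0.01 over all genes tested. Each list count is to be set beside the shares over all genes tested, 28.7% higher and 29.0% lower. Among the other laminin chains, 4 of 8 tested fell, 1 rose, and the median was -0.16 on the log2 scale. LAMA5, an α chain of many basement membranes, fell to 50.1 ± 2.78 CPM in TMEM9 KD, against 221 ± 10.2 CPM in WT (log2 fold change -2.14, SE 0.07, edgeR adjusted p = 2.64e-47). LAMB1 and LAMC1, chains of the commonest laminins, fell by 0.49 and 0.37 on the log2 scale, and LAMB2 by 0.21. LAMC3 rose on few counts, 14 and 11 in TMEM9 KD against 1 and 1 in WT, a ratio of 12.2 with a 95% counting interval of 3.03 to 106. LAMA1, LAMA2 and LAMA4 were not past the threshold and had 1.38 to 2.72 CPM in either group, and LAMB4 was not tested.

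The basement membrane into which laminin-332 is built showed 12 of 16 tested genes lower and 2 higher, and their median was -0.78 on the log2 scale. COL7A1, the anchoring fibril collagen that binds laminin-332 from below, fell to 204 ± 14.2 CPM in TMEM9 KD, against 409.5 ± 7.04 CPM in WT (edgeR adjusted p = 8.51e-29). The collagen IV genes COL4A1 and COL4A2 fell, with log2 fold changes of -1.56 and -1.24. NID1, a nidogen that joins laminin to collagen IV, fell to 0.478 ± 0.272 CPM in TMEM9 KD, against 14.0 ± 1.26 CPM in WT, while NID2 rose by 0.68. COL15A1 fell by 2.78. FRAS1, a basement membrane protein of the skin, had 18 and 23 counts in TMEM9 KD against 1 and 1 in WT, a ratio of 19.96 with a 95% counting interval of 5.18 to 170.3.

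Other receptors for laminin were also mostly lower, with 7 of 10 tested falling and 1 rising (median log2 fold change -0.38). ITGA3, the α3 chain whose pair with β1 also binds laminin-332, fell to 536 ± 44.2 CPM in TMEM9 KD, against 934 ± 17.3 CPM in WT (log2 fold change -0.80, SE 0.05). SDC1, a syndecan that binds the end of the LAMA3 chain, fell by 2.29 on the log2 scale and BCAM, a receptor for the LAMA5 chain, by 1.09. ITGA7 rose by 0.73. ITGB1 fell by 0.17.

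Of 8 tested proteases that trim laminin-332 or shed collagen XVII, 7 fell and 1 rose (median log2 fold change -0.47). MMP14, a membrane protease that cuts laminin-332, had 2.48 ± 0.138 CPM in TMEM9 KD, against 211 ± 2.17 CPM in WT (log2 fold change -6.41, SE 0.11, edgeR adjusted p = 1.49e-70). BMP1, which processes laminin-332 chains, fell by 0.68 on the log2 scale. ADAM17 and ADAM9, which shed the collagen XVII ectodomain, fell by 0.55 and 0.48. The one that rose was PLAU, by 0.28.

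On the cell side of the plaque, keratins went both ways. Of 9 tested, 5 fell and 2 rose, and the median log2 fold change was -2.56, also with KRT14 and KRT5 placed at their bounds. KRT14 and KRT5, the keratin pair that basal cells anchor at hemidesmosomes, had no counts in either TMEM9 KD library. KRT14 had 185 and 307 counts in WT, and was at least 168-fold lower in TMEM9 KD when that group is given a floor of 3 counts in all, and KRT5, with 15 counts in each WT library, at least 10.3-fold lower. KRT6A, with 0 and 2 counts in TMEM9 KD and 70 and 128 in WT, was 102 times lower (95% counting interval 27.8 to 846), and KRT16 fell by 3.69 on the log2 scale. The simple keratins KRT7 and KRT18 rose by 0.50 and 0.45, and KRT8 had a log2 fold change of -0.07. The basal keratin KRT15 was not past the threshold (log2 fold change -0.42, edgeR adjusted p = 0.0977), and KRT19 and KRT6B were not tested. Keratin genes of 1 type resemble each other, so some reads may have been split among them.

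Among the other plakins, DSP of the desmosome and PPL fell by 0.76 and 0.59 on the log2 scale, and MACF1, the closest relative of DST, rose by 0.20 (edgeR adjusted p = 0.0011). MACF1 missed the threshold when either WT library was left out (adjusted p = 0.0867 without WT replicate 1 and 0.137 without WT replicate 2). These were all 3 plakins tested.

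Transcription factors of stratified epithelium and AP-1 subunits went both ways, with 8 of 18 tested higher and 7 lower (median log2 fold change 0.36). TP63, the p63 factor of basal epithelium, had 33.5 and 31.5 CPM in TMEM9 KD, against 156 and 155 CPM in WT (log2 fold change -2.26, SE 0.08, edgeR adjusted p = 4.26e-46). Its relative TP73 had 3 and 0 counts in TMEM9 KD and 200 and 271 in WT, 161 times lower (95% counting interval 54.9 to 785). Of the AP-1 subunits, whose motif is in the LAMA3, LAMB3 and DST windows, FOSL1 rose to 219 ± 12.9 CPM in TMEM9 KD, against 60.9 ± 2.8 CPM in WT (log2 fold change 1.84, SE 0.07), and JUN rose by 1.09. BATF3, an AP-1 family member, had 6.46 and 7.15 CPM in TMEM9 KD, against 2.07 and 2.28 CPM in WT, and rose by 1.64 on the log2 scale. ATF3, FOSB and JUND rose by 1.00, 1.12 and 0.46. JUNB, FOSL2 and FOS fell by 1.10, 0.50 and 1.37 on the log2 scale, so that 6 of the 9 AP-1 genes tested were higher and 3 lower. Counts were few for FOSB, with 39 and 32 in TMEM9 KD and 10 and 22 in WT. They were also few for FOS, with 29 and 23 in TMEM9 KD and 64 and 67 in WT. LAMA3 and LAMB3 were lower in the libraries in which 6 AP-1 genes were higher and TP63 and 3 AP-1 genes lower. DST, whose AP-1 match lies after 1 of its listed starts, was higher there (log2 fold change 0.27). The DST count sums isoforms and cannot be tied to that start. Whether any of these factors bears on the laminin chains or DST was not tested.

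**Figure D4:**
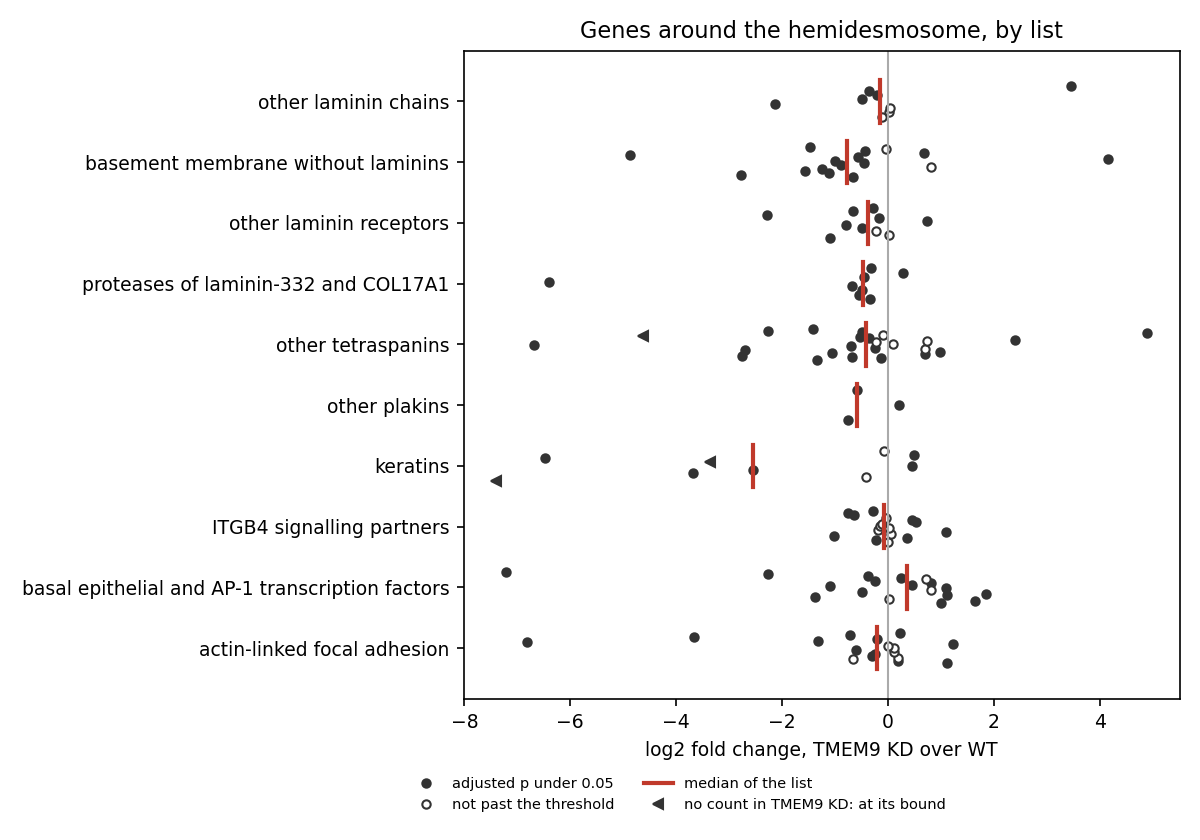
Fitted log2 fold change of TMEM9 KD over WT for each tested gene of 10 lists around the hemidesmosome. Filled points are past an adjusted p of 0.05, open points are not, triangles are genes with no count in TMEM9 KD placed at their bound, and red bars are list medians, such as -2.56 for keratins and -0.78 for the basement membrane without laminins.

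Markers of other cell types moved between the groups beside these results. Basal and myoepithelial markers other than the members summed to 853 and 844 CPM in TMEM9 KD, against 1258 and 1298 CPM in WT. Most of this sum was CAV1, with means of 428 CPM in TMEM9 KD and 642 CPM in WT, and EGFR, with 256 and 257 CPM. Of 15 tested, 10 were lower and 2 higher, the lower ones including NGFR and CDH3 with log2 fold changes of -6.56 and -4.90. The higher ones were ACTG2, with 5.61 and 6.69 CPM in TMEM9 KD against 0.334 and 0.389 CPM in WT (log2 fold change 4.05), and MYLK (0.44), both genes of contractile cells. Fibroblast markers summed to 2432 and 2667 CPM in TMEM9 KD, against 3537 and 3576 CPM in WT, with 7 of 12 lower and 5 higher. COL3A1 in that list fell by 4.94 while COL1A1 was among the 5 that rose. Leukocyte markers summed to 13.5 and 13.7 CPM in TMEM9 KD, against 201 and 199 CPM in WT, nearly all of it LCP1, with 4 of 5 tested lower and 1 higher, and with CD3E, MS4A1, LYZ and CD8A at 0 in every library. The one that was higher was PTPRC, the general leukocyte marker, with 72 and 70 counts in TMEM9 KD and 34 and 50 in WT (log2 fold change 0.72, edgeR adjusted p = 0.018), and it was not past the threshold with DESeq2 or without TMEM9_KD replicate 1 or WT replicate 1. The 8 endothelial markers matched summed to 2.68 and 3.78 CPM in TMEM9 KD and 3.21 and 3.72 CPM in WT. Luminal and apocrine markers summed to 746 and 765 CPM in TMEM9 KD and 793 and 795 CPM in WT, with 4 of 12 tested higher and 5 lower. FOXA1 rose by 1.48 on the log2 scale, on 123 and 144 counts in TMEM9 KD against 44 and 49 in WT. GATA3 rose by 1.29, on 97 and 119 counts in TMEM9 KD against 30 and 56 in WT. ELF3 fell by 2.93, on 6 and 9 counts in TMEM9 KD against 50 and 63 in WT. MLPH had 0 and 3 counts in TMEM9 KD against 78 and 66 in WT. Photoreceptor markers summed to 10.4 and 10.1 CPM in TMEM9 KD and 18.03 and 18.2 CPM in WT. OPN1SW and ABCA4 were the 2 of 5 tested that were lower. ABCA4 missed the threshold with DESeq2 (Wald test adjusted p = 0.0516). CSF1R, 1 of the 4 lower leukocyte markers, also missed it with DESeq2 (Wald test adjusted p = 0.12). Its log2 fold change of -1.03 was -0.50 without TMEM9_KD replicate 2. The part of all these cell type markers in the member levels was not tested.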

How the data were processed

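Per the labels' protocols, Illumina libraries were made from total RNA purified on RNeasy columns. The authors deposited raw counts per Ensembl gene. Among tools, CASAVA and Bowtie 0.12.2 appear in the submitters' processing notes, as do the builds mm8 and hg19, with no role stated. The sources used here give neither the counting tool nor its annotation or strand setting. GENCODE 29 served for symbols where the name table had none, exon lengths and overlaps, and 238 of 240 list entries matched a gene.

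Counts were fitted as deposited with the quasi-likelihood test of edgeR 4.0.16 in R 4.3.3, with TMM factors, filterByExpr (minimum count 10, minimum total 15), group as the only term and Benjamini-Hochberg adjustment over 14923 genes. SE was taken from the F statistic, as the size of the log2 fold change divided by the root of F. The floor for a group without counts was 3 counts over the group, and ratios with 1 to 3 counts carry exact Clopper-Pearson 95% intervals; both cover counting error only. The fit was checked on simulated counts in which few genes changed. That check does not cover so wide a change as here, or genes of few counts. A few genes fixed in the lists are not reported here and were left out of the list counts. The members and the 16 lists were chosen with earlier results of these data known. Named genes are the members, laminin chains with a count, up to 4 called genes per list with the largest change, and the 5 genes most like ITGB4; other list genes, such as COL7A1, JUN and KRT7, were named after their values were seen.

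Libraries of a group differed by more than sampling noise, with chi-square over degrees of freedom of 4.82 for TMEM9 KD and 2.04 for WT over genes with at least 20 counts in the pair. Each was kept as a replicate, as labelled. Such a spread can also arise between preparations of 1 culture, so it does not show that the cultures were separate. Alternatives were DESeq2 size factors, upper quartile or library size only, no filter or a mean of at least 5 CPM, DESeq2 1.42.0, limma voom (3.58.1), a block on replicate number and fits without each library in turn.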

Additional observations from a re-analysis of the deposited data

How the results depend on the processing

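Under 12 alternatives the log2 fold change stayed between -5.54 and -5.06 for ITGB4, -3.75 and -3.36 for COL17A1, -0.89 and -0.69 for LAMA3, -0.69 and -0.59 for LAMB3, -0.25 and -0.16 for ITGA6, 0.21 and 0.35 for DST and 0.18 and 0.52 for PLEC, while CD151 ran from -0.09 to 0.17 and was negative in 2 of 12. Genes higher in TMEM9 KD numbered 4283 and lower 4335, with 3310 and 3640 by DESeq2, 5030 and 3734 by library size only, and 4171 and 4266 with the replicate block. Leaving out a library gave 3080 to 4173 higher and 3523 to 4405 lower. The labels do not say whether equal replicate numbers pair samples. Deviations of same-numbered libraries correlated at 0.000474, so no shared deviation was seen, which does not show that the libraries were unpaired. The block changed no call of a named gene.

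With a mean of at least 5 CPM fewer genes were tested, and the counts were 0 laminin chains higher, 1 basement membrane gene higher, 1 tetraspanin higher, 1 keratin lower, 1 basal marker higher, 3 luminal markers lower, 3 fibroblast markers higher, 0 leukocyte markers higher and 1 lower, 0 endothelial markers lower and 1 photoreceptor marker lower. With no filter 1 endothelial marker was higher. With DESeq2, 0 leukocyte markers were higher and 1 photoreceptor marker lower, the cause of which was not tested. Leaving out a library gave these ranges of members past the threshold: 0 to 1 laminin chains higher, 2 to 4 tetraspanins higher, 0 to 1 plakins higher, 2 to 6 focal adhesion genes higher and 5 to 9 lower, 3 to 4 fibroblast markers higher, 0 to 1 leukocyte markers higher and 1 to 2 photoreceptor markers lower. What size of change 2 libraries a group can detect in genes of few counts was not measured.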

Other observations

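Genes that carry signals from the ITGB4 tail showed no common direction, with 4 of 16 tested higher and 5 lower in TMEM9 KD (median log2 fold change -0.08). The kinase genes FYN and SRC fell by 1.03 and 0.76 on the log2 scale and the adaptor SHC1 by 0.64, while the adaptor IRS1 rose by 1.10. EGFR, which acts with α6β4 in carcinoma cells, had 256 ± 4.74 CPM in TMEM9 KD and 257 ± 6.06 CPM in WT (SD, n = 2 each). Of 17 actin-linked focal adhesion genes tested, 8 fell and 4 rose (median -0.20). TNS1, a tensin, had 0.387 ± 0.143 CPM in TMEM9 KD, against 44.2 ± 1.37 CPM in WT, and TNS4 fell by 3.67 and TNS2 by 1.32, while TLN2 rose by 1.22. Without WT replicate 2, 5 of this list were lower and 2 higher.

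Among 24 other tetraspanins tested, 15 fell and 4 rose (median log2 fold change -0.42, also with TSPAN32 at its bound), whereas CD151 overlapped between the groups. TSPAN32 had no counts in either TMEM9 KD library, against 39 and 33 in WT, and was at least 24.7-fold lower. TSPAN15 fell by 6.69 and CD82 by 2.76 on the log2 scale. TSPAN5 had 16 and 22 counts in TMEM9 KD against 1 and 0 in WT, a ratio of 37.0 with a 95% counting interval of 6.25 to 1499.

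By root mean square difference of log2 CPM (prior count 2) centred on each gene's mean over the 4 libraries, the genes most like ITGB4 were XAF1 (0.05), GPD2 (0.10), SERPINB4 (0.14), CP (0.16) and LINC01929 (0.16). The prior count draws the values of low genes together, so this likeness is looser than it looks. GPD2 had 9 and 5 counts in TMEM9 KD and 271 and 335 in WT, and LINC01929 1 and 1 in TMEM9 KD and 104 and 117 in WT. SERPINB4 shares sequence with SERPINB3.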
